A study of Mus musculus with 16 samples.

Results

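The genes described here are 10 secreted ligands, receptors and antagonists of Wnt signaling in mouse hearts: Frzb, Sfrp1, Sfrp2, Sfrp4, Sfrp5, Dkk3, Wif1, Wnt5a, Fzd1 and Fzd2. They were taken by name from a count table of 55573 genes, and the names were chosen on measured values of these same hearts. Their levels and fold changes are therefore a description, and no p-value is given for them. RNA was prepared from the heart apex of 16 male mice in 4 groups of 4. All mice had been injected with adeno-associated virus serotype 9 under the skin on postnatal day 1, so the controls carried a virus as well. The virus expressed either GFP (AAV9-cTNT-GFP) or the mouse long noncoding RNA Cardinal (AAV9-cTNT-CARDINAL) from a cardiac troponin T promoter, which the study describes as specific to cardiomyocytes. The mice later had Sham surgery or TAC (ligation that constricts the transverse aorta and raises the pressure load on the left ventricle). Hearts were collected 4 weeks after surgery, and the 4 groups are called GFP Sham, GFP TAC, CARDINAL Sham and CARDINAL TAC below. The strain and the exact age were not given in the sources used here, and nothing in the labels says that the numbered samples of a group came from separate animals or surgery days, so p-values measure only the spread between these samples, called mice here.

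Wnt proteins are secreted, lipid-modified ligands that bind Frizzled receptors, together with the co-receptors Lrp5 and Lrp6 when the signal runs through beta-catenin, or with Ror and Ryk receptors when it does not. Secreted Frizzled-related proteins, of which Frzb is also known as sFRP3, carry a Frizzled-like domain and bind Wnt proteins outside the cell, and Wif1 binds Wnt proteins through a different domain. In the adult heart the canonical branch is largely quiet, and several of the secreted antagonists are known as products of fibroblasts and other stromal cells.

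Total counts ran from 16441997, in a CARDINAL Sham mouse, to 21904589, and 16857 genes had enough counts to be tested. Levels are given as CPM, counts scaled to a common library size after TMM normalization, or as RPKM, CPM per kilobase of annotated exon, where levels of different genes are compared. A gene was called changed at a Benjamini-Hochberg adjusted p under 0.05 over all 16857 genes in edgeR's quasi-likelihood test. The Cardinal gene, listed as Gm12295, ranged from 3.42 to 7.24 CPM in the 8 mice given AAV9-cTNT-GFP and from 18.3 to 93.9 CPM in the 8 given AAV9-cTNT-CARDINAL, with the highest value in CARDINAL TAC mouse 1. Cardiomyocyte markers were abundant in every mouse, as the labelled tissue requires, with 36630 to 50560 CPM summed over 8 genes. Because the tissue is a mixture, fewer cells of a type and less RNA per cell cannot be told apart.

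All 10 genes were expressed at low levels. Per exon length, the order in GFP Sham hearts was led by Sfrp1 at 2.14 ± 0.291 RPKM (SD, n = 4), whose lowest mouse lay above the highest mouse of the next gene. Fzd1 (0.961 RPKM), Wnt5a (0.931), Wif1 (0.648), Sfrp2 (0.634), Frzb (0.631), Fzd2 (0.386), Dkk3 (0.302) and Sfrp5 (0.261) followed, and each of these overlapped the next. Sfrp4 was last at 0.0466 RPKM and lay below every Sfrp5 value. CARDINAL Sham hearts had Sfrp1 first and Sfrp5 and Sfrp4 last as well, at 2.23, 0.211 and 0.0297 RPKM. After TAC the order differed: Frzb stood second in GFP TAC hearts, at 2.095 ± 0.343 RPKM (SD, n = 4), where it overlapped both Sfrp1 (3.09) and Fzd1 (1.70). In CARDINAL TAC hearts Frzb was at 1.21 ± 0.114 RPKM (SD, n = 4), behind Sfrp1 (1.91) and Fzd1 (1.46) and overlapping Fzd1.

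**Figure D1:**
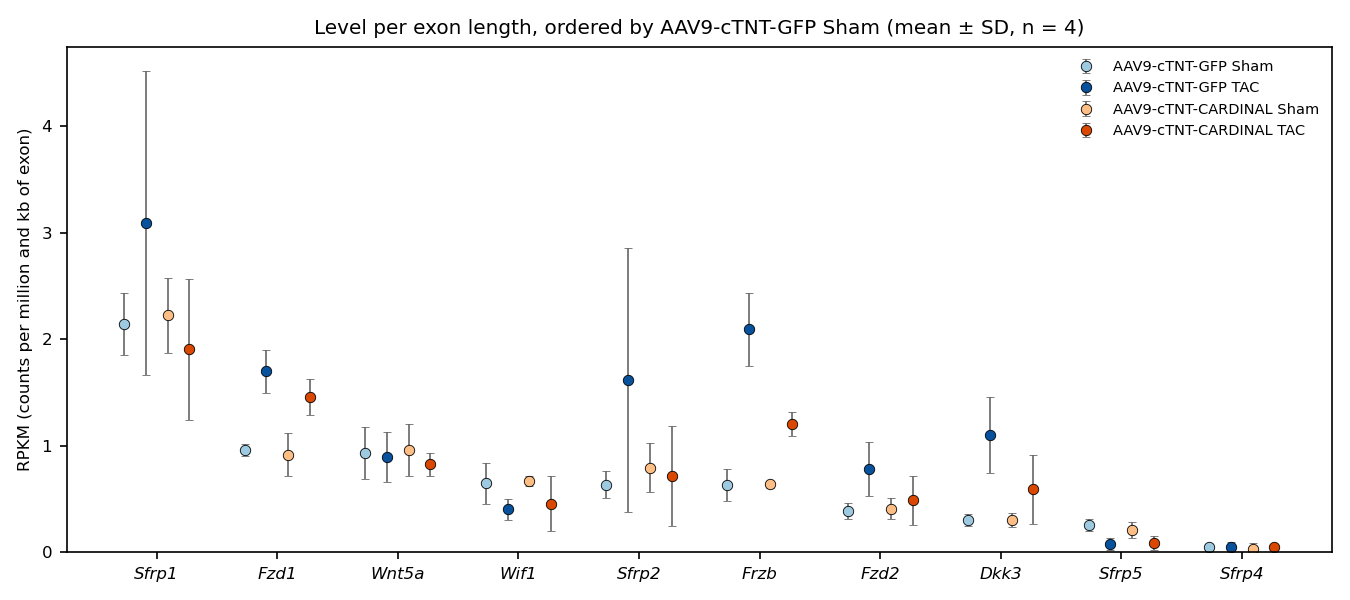
Level per exon length in RPKM (y axis) of the 10 listed Wnt genes, ordered along the x axis by their mean in GFP Sham hearts. Points are means and bars SD over 4 mice of each group; Sfrp1 led every group, and Frzb moved from 0.631 RPKM in GFP Sham to 2.095 RPKM in GFP TAC hearts.

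Promoter sequence was available from RefSeq (GRCm38.p6) for 5 of the 10 genes, namely Frzb, Sfrp2, Sfrp5, Wif1 and Fzd1. The 3 printed here are those whose 250 bases before the RefSeq start held no annotated exon of the gene. They cover a receptor gene that rose after TAC with both viruses and a pair of Sfrp genes not called in the main edgeR fit. Fzd1 lies at chr5:4758217-4758466 on the minus strand, with the RefSeq start upstream of the annotated gene start. Sfrp2 lies at chr3:83766071-83766320 on the plus strand and Sfrp5 at chr19:42202253-42202502 on the minus strand. Each is written 5′ to 3′ on the strand of the gene, and capitals mark a TATAAA match.
Fzd1: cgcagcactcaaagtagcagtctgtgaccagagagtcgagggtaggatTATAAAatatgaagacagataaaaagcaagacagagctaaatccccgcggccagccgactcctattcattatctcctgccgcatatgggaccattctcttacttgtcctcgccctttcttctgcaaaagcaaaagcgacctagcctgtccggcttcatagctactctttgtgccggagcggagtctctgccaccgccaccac
Sfrp2: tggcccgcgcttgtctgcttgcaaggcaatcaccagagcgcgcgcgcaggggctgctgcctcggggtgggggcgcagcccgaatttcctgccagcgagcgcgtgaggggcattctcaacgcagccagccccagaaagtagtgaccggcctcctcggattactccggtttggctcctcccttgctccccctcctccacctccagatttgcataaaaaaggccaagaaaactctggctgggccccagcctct
Sfrp5: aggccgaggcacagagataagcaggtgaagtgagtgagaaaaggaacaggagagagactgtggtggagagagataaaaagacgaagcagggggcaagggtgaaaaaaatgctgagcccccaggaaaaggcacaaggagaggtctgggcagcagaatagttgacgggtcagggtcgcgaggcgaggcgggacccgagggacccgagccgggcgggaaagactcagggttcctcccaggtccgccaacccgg
The letters TATAAA, searched on both strands, were found in the Fzd1 and Wif1 windows and in 12.4% of all 32851 windows of the same length. The T-cell factor motif, searched on both strands as CTTTGAT or CTTTGAA, was in 7.48% of all windows and in 0 of these 5, which says only that the letters are not in these windows. The GC content was 51.2% for Fzd1, 63.6% for Sfrp2 and 59.6% for Sfrp5, against a median of 52.4% over all windows.

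Among the secreted antagonists, Frzb was the 1 member for which neither TAC group overlapped the other TAC group or its own Sham group. It lies at chr2:80411970-80447625 on the minus strand of GRCm38 with 6 exons, and none of its exon sequence was shared with another gene. Frzb was at 1.42, 2.55, 1.91 and 2.30 CPM in GFP Sham mice 1 to 4 and at 6.22, 8.43, 6.08 and 6.39 CPM in GFP TAC mice 1, 3, 4 and 7. In CARDINAL Sham mice 1 to 4 it was at 1.94, 2.05, 2.16 and 2.14 CPM, and in CARDINAL TAC mice 1, 4, 5 and 6 at 3.98, 3.43, 3.87 and 4.33 CPM. Both Sham groups lay within the same low range, and the CARDINAL TAC mice lay between the Sham and the GFP TAC mice. TAC against Sham, the log2 fold change was 1.73 (SE 0.15) with AAV9-cTNT-GFP and 0.91 (SE 0.16) with AAV9-cTNT-CARDINAL, and both passed the test. In TAC hearts Frzb was lower with AAV9-cTNT-CARDINAL by a log2 fold change of -0.80 (SE 0.14, 95% interval -1.10 to -0.50), which also passed. That last call was lost in 12 of the 16 fits that left out 1 mouse, Sham mice included, while the log2 fold change stayed between -0.85 and -0.67.

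Dkk3, a secreted member of the Dickkopf family, rose after TAC in the GFP hearts. It lies at chr7:112116017-112159057 on the minus strand with 8 exons. It was at 0.899, 0.864, 1.03 and 1.27 CPM in GFP Sham and at 2.79, 5.45, 3.02 and 3.57 CPM in GFP TAC hearts, without overlap, for a log2 fold change of 1.86 (SE 0.32). In CARDINAL Sham hearts it was at 1.22, 0.976, 1.15 and 0.714 CPM. CARDINAL TAC mouse 1 stood apart from its group at 3.58 CPM, within the GFP TAC range, while mice 4, 5 and 6 were at 1.18, 1.49 and 1.70 CPM. The log2 fold change of TAC against Sham in CARDINAL hearts was 0.95 (SE 0.34) and that of CARDINAL TAC against GFP TAC was -0.89 (SE 0.29), and neither passed the test with all 16 mice. Without CARDINAL TAC mouse 1 the latter was -1.34 and passed, in a fit that called 535 of all genes in this comparison, against 17 with all mice.

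Sfrp1 and Sfrp2 had 1 high mouse in each TAC group, and neither gene passed in any comparison in the main edgeR fit of all 16 mice. Sfrp1 (chr8:23411502-23449632, plus strand) was at 9.41, 10.4, 10.1 and 7.58 CPM in GFP Sham and at 11.6, 22.8, 10.1 and 9.65 CPM in GFP TAC hearts. It was at 10.8, 10.2, 10.4 and 7.46 CPM in CARDINAL Sham and at 12.5, 5.83, 7.31 and 7.69 CPM in CARDINAL TAC hearts. GFP TAC mouse 3 was the highest of all 16, and CARDINAL TAC mouse 1 was the highest of its group. Sfrp2 (chr3:83766321-83774316, plus strand) repeated the 2 high mice. It was at 1.37, 1.01, 1.67 and 1.42 CPM in GFP Sham, at 2.19, 7.43, 2.76 and 1.57 CPM in GFP TAC, at 1.54, 2.00, 2.21 and 1.10 CPM in CARDINAL Sham and at 3.05, 0.846, 1.12 and 1.15 CPM in CARDINAL TAC hearts. The log2 fold change of TAC against Sham with AAV9-cTNT-GFP was 0.53 (SE 0.27) for Sfrp1 and 1.35 (SE 0.47) for Sfrp2. With both of those mice left out together, a choice made after seeing the data, these values were 0.15 and 0.67. The Sfrp2 value after TAC in GFP hearts did pass with DESeq2 (1.36) and with the mouse number as a block in edgeR (1.46). It also passed in 3 of the 16 fits without 1 mouse: without GFP TAC mouse 1 (1.53), without GFP TAC mouse 7 (1.60) and without CARDINAL TAC mouse 1 (1.36). An antisense gene, Gm26771, overlaps 16.1% of the Sfrp2 exon bases, and the use of strand in counting was not given in the sources used here. Gm26771 itself had at most 6 counts in any mouse.

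Sfrp5 and Sfrp4 were near the limit of detection, where 3 counts correspond to between 0.126 and 0.195 CPM, a floor that covers counting error only. Sfrp5 (chr19:42197971-42202252, minus strand) had 8, 9, 12 and 12 counts in GFP Sham and 5, 0, 3 and 6 counts in GFP TAC mice, so the groups did not overlap. In CARDINAL Sham mice it had 11, 12, 6 and 4 counts and in CARDINAL TAC mice 7, 4, 0 and 4, which overlapped. Its log2 fold changes after TAC of -1.68 (SE 0.58) in GFP and -1.22 (SE 0.59) in CARDINAL hearts did not pass in the main edgeR fit. The value in GFP hearts passed in 1 of the 16 fits without 1 mouse, that without CARDINAL TAC mouse 5 (-1.68). Sfrp4 (chr13:19623104-19632994, plus strand) had 0 to 10 counts in GFP hearts and was the 1 member that did not pass the filter on low counts. In CARDINAL Sham hearts all 11 counts of Sfrp4 came from mouse 1, and CARDINAL TAC mice had 3 to 6 counts. A difference in Sfrp4 was not detectable at this depth.

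Wif1, Wnt inhibitory factor 1, was lower on average after TAC with both viruses, but the groups overlapped and it did not pass. It lies at chr10:121033960-121100650 on the plus strand. It was at 1.51, 1.30, 2.25 and 1.22 CPM in GFP Sham and at 0.686, 1.05, 0.919 and 1.26 CPM in GFP TAC hearts, a log2 fold change of -0.68 (SE 0.33). In CARDINAL Sham hearts it was at 1.49, 1.67, 1.59 and 1.75 CPM. In CARDINAL TAC hearts mouse 1 was the lowest of all at 0.398 CPM and mice 4, 5 and 6 were at 1.88, 0.885 and 1.29 CPM, a log2 fold change of -0.55 (SE 0.33).

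**Figure D2:**
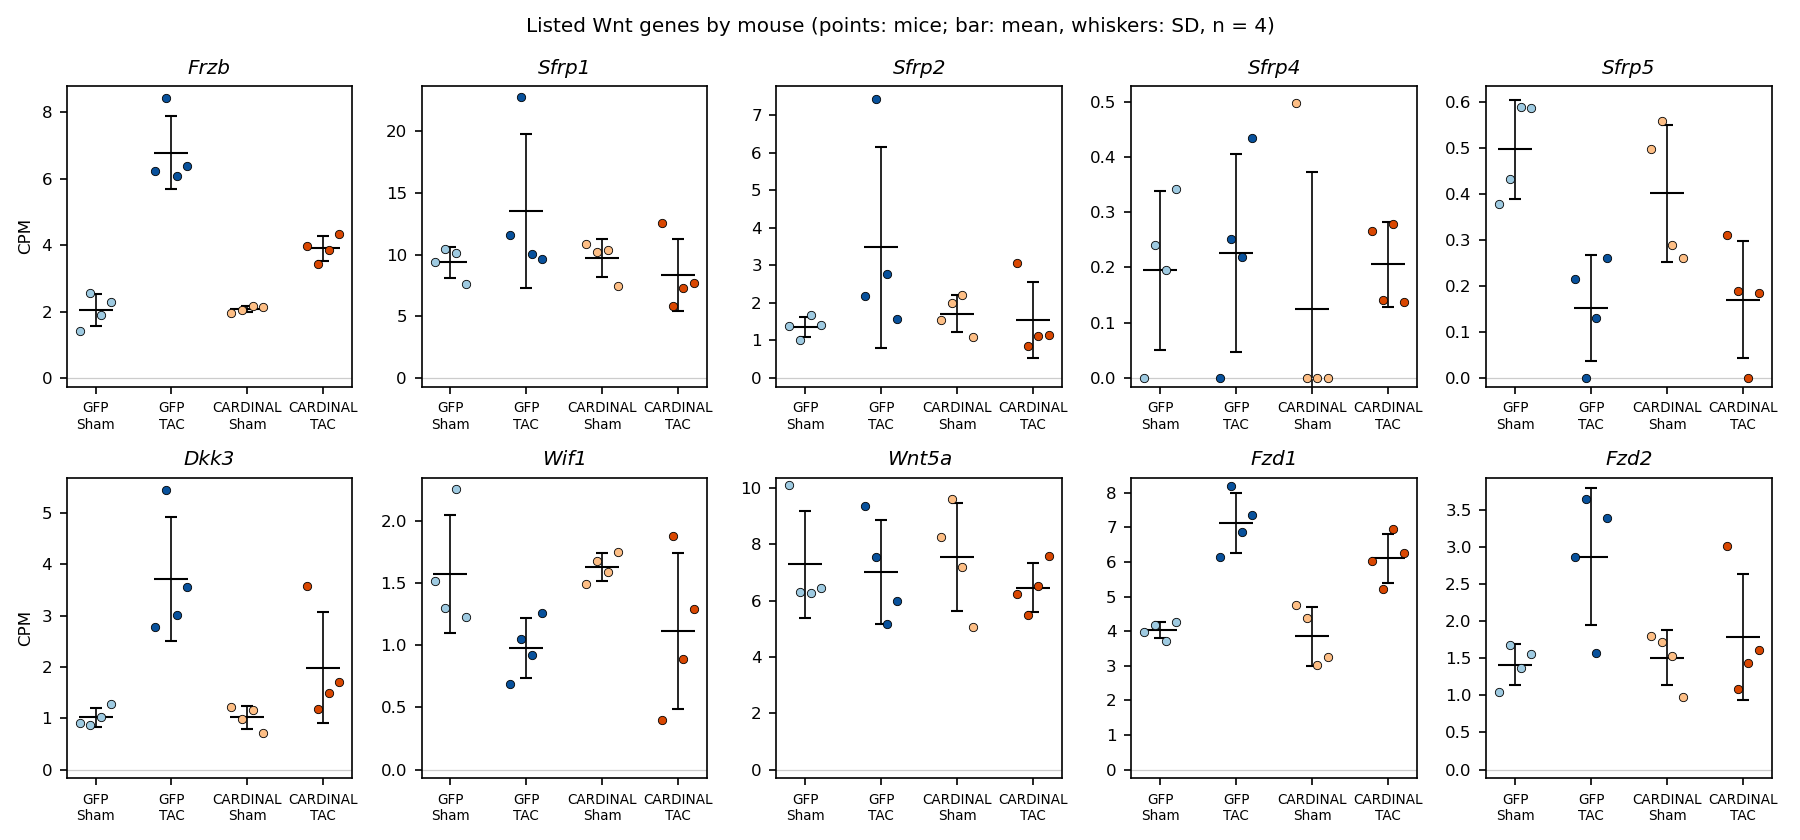
Level in CPM (y axis, from 0) of each of the 10 genes in each of the 16 mice, in 4 groups (x axis). Points are mice in order of their number, the bar is the mean and the whiskers the SD over 4 mice; for Frzb neither TAC group overlaps the other or its Sham group, and for Sfrp1 and Sfrp2 1 mouse lies well above the others of its TAC group.

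The ligand Wnt5a, which signals mainly through the branch that does not use beta-catenin, had similar levels in the 4 groups. It lies at chr14:28504750-28527448 on the plus strand. It was at 10.1, 6.29, 6.27 and 6.45 CPM in GFP Sham, at 9.34, 7.55, 5.16 and 6.00 CPM in GFP TAC, at 8.27, 9.62, 7.21 and 5.06 CPM in CARDINAL Sham and at 6.24, 5.50, 6.52 and 7.60 CPM in CARDINAL TAC hearts. The log2 fold change after TAC was -0.055 with AAV9-cTNT-GFP, with a 95% interval from -0.51 to 0.40, and -0.23 with AAV9-cTNT-CARDINAL, with an interval from -0.69 to 0.23. An antisense gene, Gm2670, overlaps 4.58% of its exon bases and had at most 3 counts in any mouse.

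Of the receptors, Fzd1 rose after TAC with both viruses. The single-exon gene lies at chr5:4753839-4758035 on the minus strand. Fzd1 was at 3.97, 4.18, 3.72 and 4.25 CPM in GFP Sham and at 6.13, 8.18, 6.87 and 7.35 CPM in GFP TAC hearts, a log2 fold change of 0.82 (SE 0.14). It was at 4.74, 4.37, 3.03 and 3.24 CPM in CARDINAL Sham and at 6.02, 5.22, 6.94 and 6.26 CPM in CARDINAL TAC hearts, and the change was 0.66 on the log2 scale (SE 0.14). Every TAC mouse lay above every Sham mouse of either virus, and the TAC groups overlapped each other, with a log2 fold change of -0.22 (95% interval -0.50 to 0.055) between the viruses. Without CARDINAL TAC mouse 5 the call in CARDINAL hearts was lost, at a log2 fold change of 0.59. Fzd2 (chr11:102604396-102608058, plus strand, also a single exon) rose in the GFP hearts and did not pass in the CARDINAL hearts. It was at 1.04, 1.68, 1.37 and 1.56 CPM in GFP Sham and at 2.87, 3.65, 1.58 and 3.39 CPM in GFP TAC hearts, where mouse 4 lay within the Sham range, and the log2 fold change was 1.02 (SE 0.31). In CARDINAL Sham hearts it was at 1.81, 1.72, 1.54 and 0.973 CPM. CARDINAL TAC mouse 1 was at 3.01 CPM and mice 4, 5 and 6 at 1.08, 1.44 and 1.61 CPM, a log2 fold change of 0.23 (SE 0.32) that was -0.15 without mouse 1. The call in GFP hearts was lost in 5 of the 16 fits without 1 mouse, those without GFP Sham mouse 1, 3 or 4 or GFP TAC mouse 3 or 7, with log2 fold changes of at least 0.89.

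Counted over the 9 members that were tested, TAC against Sham in GFP hearts gave 4 higher (Frzb, Dkk3, Fzd1 and Fzd2) and 0 lower, with a median log2 fold change of 0.82. Of all 16857 genes, 17.4% were called in this comparison and 8.49% were called higher, and the median of all genes was 0.005. The 2 groups did not overlap for 4 members, against 20.3% of all genes. In CARDINAL hearts 2 members were called, Frzb and Fzd1, both higher and both without overlap, beside 6.48% of all genes called, 3.10% called higher and 13.7% without overlap. The median over the members was -0.16 there. In TAC hearts, CARDINAL against GFP, Frzb was the 1 member called and the 1 without overlap, beside 0.101% of all genes called and 6.77% without overlap. Log2 fold changes of the other 8 were between -1.17 for Sfrp2 and 0.18. In Sham hearts 0 of 9 were called by edgeR's quasi-likelihood test or by DESeq2, and 0 were without overlap, beside 0.0119% and 2.36% of all genes. The difference in TAC response between the viruses, tested as an interaction over all 16 mice, gave 0 of 9 calls with either tool, beside 0.0119% of all genes. Its estimates were -0.82 (SE 0.22) for Frzb, -1.51 (SE 0.68) for Sfrp2, -0.91 (SE 0.47) for Dkk3, -0.79 (SE 0.44) for Fzd2 and -0.76 (SE 0.38) for Sfrp1 on the log2 scale. The members were chosen with such values in view, so none of these counts says anything about Wnt genes in general, and the comparisons share their Sham or TAC mice.

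**Figure D3:**
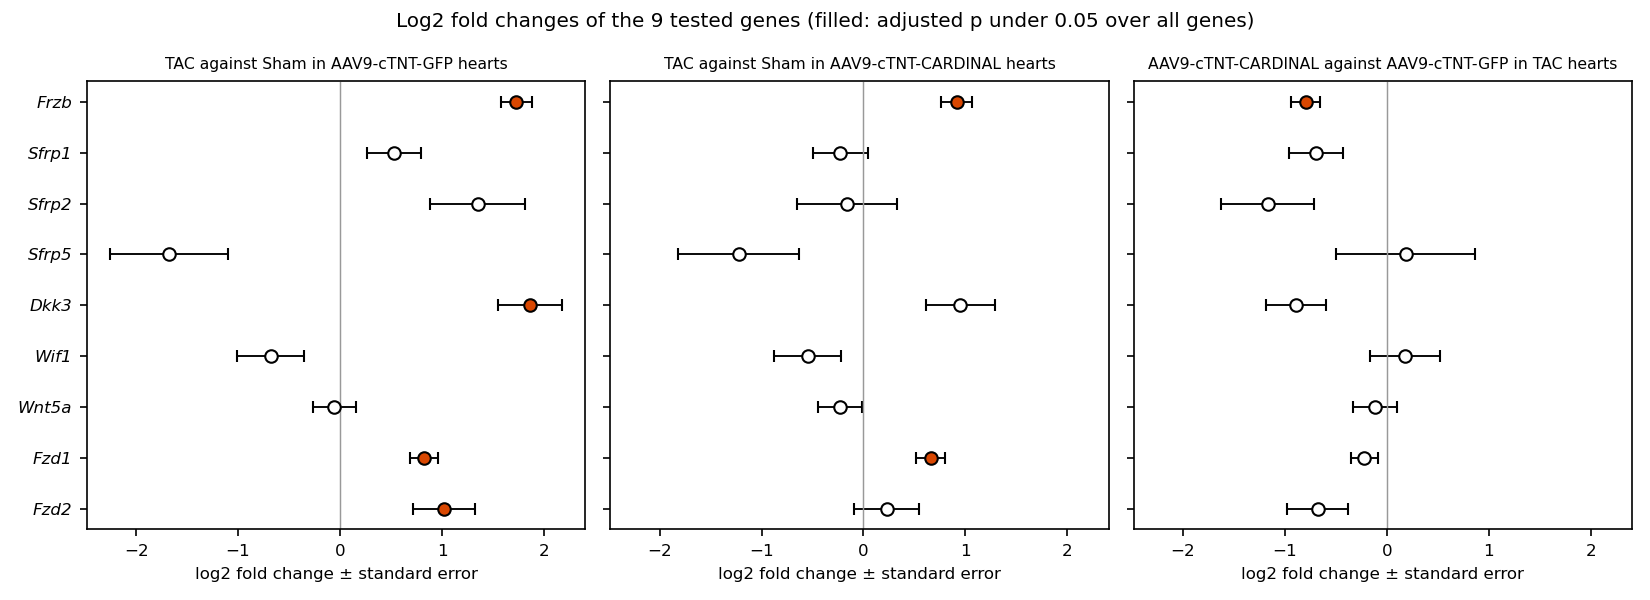
Log2 fold change with its standard error (x axis) of the 9 tested genes (y axis) for TAC against Sham with either virus and for CARDINAL against GFP in TAC hearts. Filled points passed an adjusted p under 0.05 over all genes; Frzb was filled in each of the 3 comparisons, at 1.73, 0.91 and -0.80.

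Fibroblast markers differed between mice and groups, and their values are given beside those of the members. Summed over 8 fibroblast genes (Col1a1, Col1a2, Col3a1, Pdgfra, Tcf21, Dcn, Lum and Dpt, none of them at 0 in all mice), the markers ranged from 540.3 to 613.7 CPM in GFP Sham, from 793.4 to 993.7 CPM in GFP TAC and from 523.1 to 576.4 CPM in CARDINAL Sham hearts. In CARDINAL TAC hearts mouse 1 was at 919 CPM and the other mice were between 526.8 and 571.8 CPM. The highest GFP TAC mouse was mouse 3, which was also the highest of its group for 6 members, Frzb, Sfrp1, Sfrp2, Dkk3, Fzd1 and Fzd2. CARDINAL TAC mouse 1 was the highest of its group for Sfrp1, Sfrp2, Sfrp5, Dkk3 and Fzd2. For Frzb and Fzd1 it was not: at 3.98 and 6.02 CPM it lay among the other CARDINAL TAC mice. In the fit without both mice, Frzb was called lower in CARDINAL TAC than in GFP TAC hearts. Its log2 fold change was -0.68, against -0.80 with all mice. Dkk3 was called lower as well, at -1.09. That fit called 191 of all genes in this comparison, against 17 with all mice. Without GFP TAC mouse 3 alone the Frzb value was -0.67 and its call was lost.

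Of the 8 fibroblast genes, 4 were called higher after TAC in GFP hearts and 0 lower, beside 17.4% of all genes called. They were the collagen genes Col1a1 (log2 fold change 1.46), Col1a2 (1.04) and Col3a1 (1.49), and Lum (0.74). Pdgfra (0.18), Tcf21 (0.36), Dcn (0.055) and Dpt (-0.17) were not called. In CARDINAL hearts edgeR called 0, with 3 at an unadjusted p under 0.05, beside 6.48% of all genes called and 3682 of 16857 at such a p. Between the viruses in TAC hearts it called 0, with 5 at an unadjusted p under 0.05, and all 8 log2 fold changes were below 0 with a median of -0.36. Of all 16857 genes, 2528 had such a p in this comparison, and the median log2 fold change was -0.007. The 8 markers of activated fibroblasts were Postn, Cthrc1, Comp, Cilp, Thbs4, Fap, Meox1 and Acta2. They summed to 249.7 to 392.1 CPM in GFP TAC and to 113.5 to 224.5 CPM in CARDINAL TAC hearts. In Sham hearts they were between 76.2 and 99.1 CPM except in GFP Sham mouse 4, at 257.6 CPM, in which Acta2, also a smooth muscle gene, reached 219.2 CPM. Of the 7 tested, 4 were called higher after TAC in GFP hearts (Postn, Cilp, Thbs4 and Meox1) and 3 in CARDINAL hearts (Postn, Cilp and Thbs4). Comp, Fap and Acta2 were called in neither, with log2 fold changes of 1.52, 0.066 and -0.69 in GFP hearts. Between the viruses in TAC hearts all 7 had log2 fold changes below 0 with a median of -0.89, 4 had an unadjusted p under 0.05, and 1 was called lower, the matricellular gene Thbs4 at -1.67 (SE 0.29, edgeR adjusted p = 0.0429), named after its value was seen. The 8 cardiomyocyte markers summed to 36630 to 43910 CPM in GFP TAC and to 43880 to 48310 CPM in CARDINAL TAC hearts, and 6 of them were called lower after TAC in GFP hearts and 1 in CARDINAL hearts. After TAC in GFP hearts, 1 of 6 endothelial markers was called higher, 0 of 6 macrophage markers were called or had an unadjusted p under 0.05, 1 of 6 pericyte and smooth muscle markers was higher and 1 lower, and 1 of 3 tested Schwann cell markers was lower. Across 16 mice, as a description, the log2 level of Dkk3 had a Pearson correlation of 0.93 with the log2 fibroblast sum, and 0.83 after the group means were taken out. For Sfrp1 these values were 0.725 and 0.811, for Sfrp2 0.763 and 0.744, and for Fzd2 0.847 and 0.721. For Frzb they were 0.788 and 0.216, and for Fzd1 0.709 and 0.174. For Wif1 they were -0.688 and -0.644, and for Wnt5a -0.029 and 0.102. In the fibroblast sum GFP TAC mouse 3 (993.7 CPM) and CARDINAL TAC mouse 1 (919 CPM) stood above the others of their groups. Both were also the highest of their groups for Dkk3, Sfrp1, Sfrp2 and Fzd2. The part of these mice in the correlations was not tested. With the activated fibroblast sum the values within groups were 0.712 for Dkk3, 0.553 for Fzd2, 0.484 for Sfrp2 and 0.440 for Frzb. They were 0.314 for Fzd1, 0.279 for Sfrp1, -0.073 for Wnt5a and -0.494 for Wif1. The order of the members thus differed between these sums, and the correlations were not compared by a test. The activated fibroblast sum includes GFP Sham mouse 4, at 257.6 CPM with its high Acta2. The part of that mouse in the order was not tested. The points share their libraries and their surgery. The part of these markers in the members' values was not tested.

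**Figure D4:**
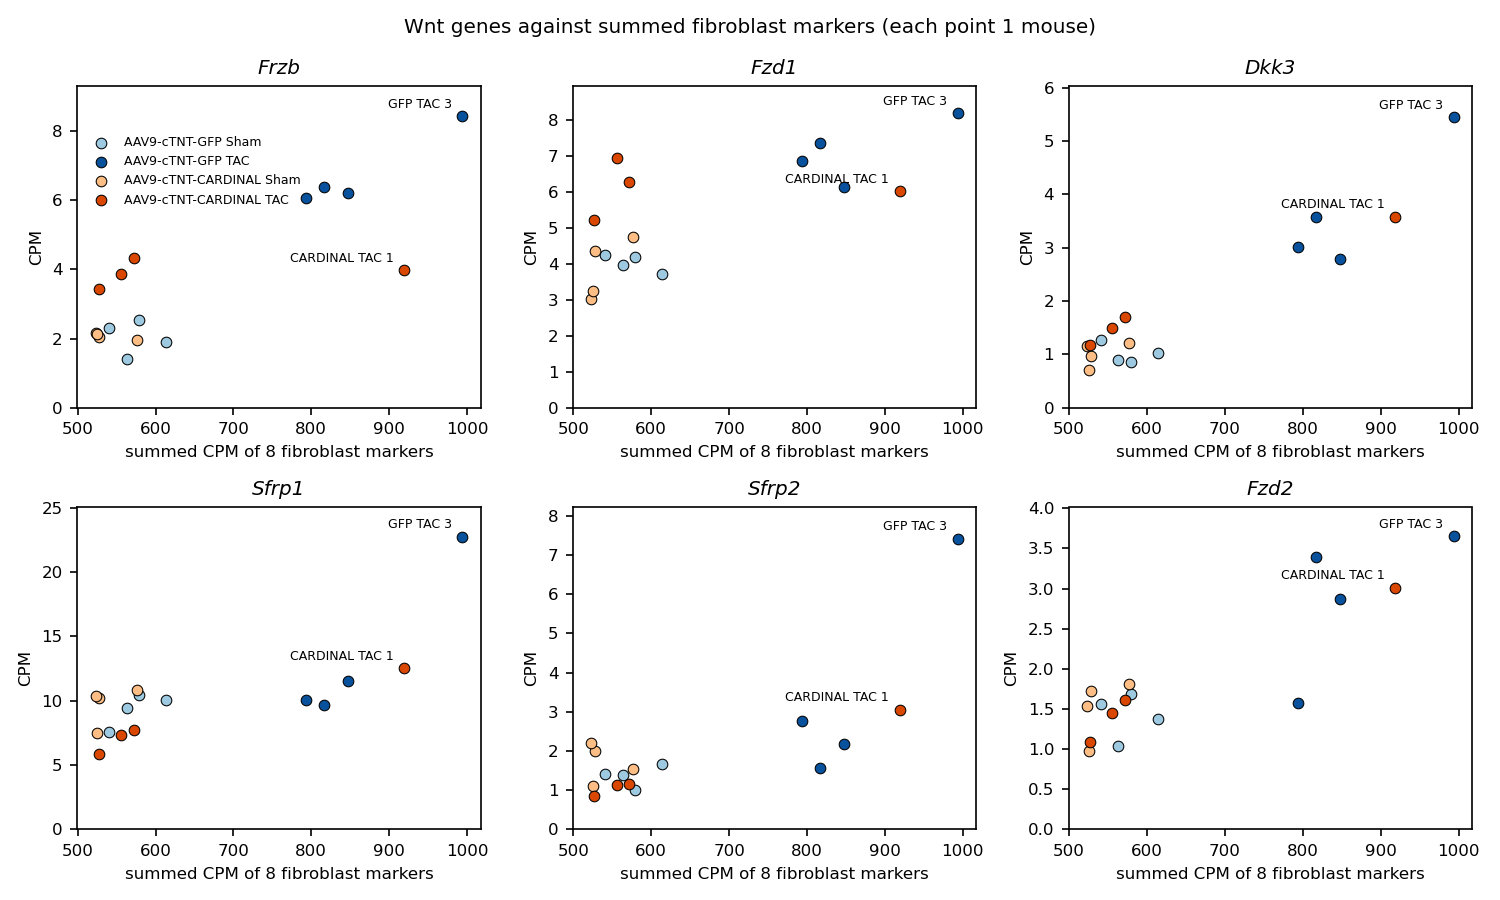
Level in CPM of 6 of the genes (y axes, from 0) against the summed CPM of 8 fibroblast markers (x axes), 1 point per mouse, colored by group. GFP TAC mouse 3 (993.7 CPM of markers) and CARDINAL TAC mouse 1 (919 CPM) are named; CARDINAL TAC mouse 1 lies with the GFP TAC mice for Dkk3, Sfrp1, Sfrp2 and Fzd2 and with its own group for Frzb.

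Among the members, Sfrp1 and Sfrp2 were the pair most alike over the 16 mice, with a correlation of their log2 levels of 0.898, and of 0.876 within groups. Frzb and Dkk3 followed at 0.894, but at 0.362 within groups. Sfrp1 and Sfrp2 shared their highest mouse in each TAC group, GFP TAC mouse 3 and CARDINAL TAC mouse 1. The part of these mice in the Sfrp1 and Sfrp2 correlation was not tested. Of the tested genes outside the list with a mean of at least 5 CPM, the one most like Frzb was Hspb6 (0.971 over 16 mice, 0.647 within groups), followed by Acta1, skeletal alpha-actin (0.967 and 0.505), and Itga9 (0.966 and 0.579). Dkk3 was most like Adamts2, the procollagen N-propeptidase (0.974 and 0.887), Pcolce, the procollagen C-endopeptidase enhancer (0.971 and 0.883), and Col5a1 (0.969 and 0.863). Fzd1 was most like the laminin gene Lamc1 (0.980 and 0.887), then Tmem53 and Yars. Fzd2 was most like the protocadherin gene Dchs1 (0.933 and 0.906), then Pcolce2 and Dact3. Both Sfrp1 and Sfrp2 had the extracellular matrix gene Prelp as the most alike, at 0.922 and 0.934 for Sfrp1 and at 0.916 and 0.896 for Sfrp2. The next were Selenom and Mxra8 for Sfrp1 and Golim4 and Pfn1 for Sfrp2. For Wif1 and Wnt5a the highest values were lower, 0.833 with Immp2l and 0.837 with Ttc39b, followed by Gm8834 and Ttc32 and by Pgp and Phf12. All these partners are the highest of a search over many genes with only 16 mice. How high such values would be among unrelated genes was not tested.

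The rest of the Wnt pathway was represented by 100 genes in 6 lists written by function, of which 71 had enough counts to be tested. The lists were written with earlier results of these data known, so their counts are a description. Most genes named below were picked for the size of a called change, so their p-values are not independent support. After TAC in GFP hearts 8 were called higher and 2 lower, 14.1% of those tested beside 17.4% of all genes, with a median log2 fold change of 0.076. In CARDINAL hearts 3 were called higher and 3 lower, 8.45% beside 6.48% of all genes, with a median of -0.001. Between the viruses edgeR called 0 of 71 in TAC hearts, with 12 at an unadjusted p under 0.05 and 1 called by DESeq2. It called 0 in Sham hearts (3 at an unadjusted p under 0.05, 0 by DESeq2) and 0 for the difference in TAC response (7 and 0). Of all 16857 genes, 2528 had an unadjusted p under 0.05 in TAC hearts, 437 in Sham hearts and 1722 for the difference. Adjusted p-values below are from edgeR's quasi-likelihood test over all genes.

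Most other ligands had too few counts to be tested. Of 18 further Wnt ligand genes, 8 had 0 counts in all 16 mice, among them Wnt1, Wnt3a and Wnt7a, and 5 were tested. Wnt11, a ligand of the branch without beta-catenin, fell after TAC in CARDINAL hearts from 2.79 to 1.74 CPM on average (log2 fold change -0.69, SE 0.18, adjusted p = 0.0338, n = 4 a group), while its log2 fold change in GFP hearts was -0.36 (SE 0.18, adjusted p = 0.191). The difference between these was -0.33 (SE 0.25, adjusted p = 0.688). Of 14 further receptors and co-receptors, 13 were tested and edgeR called 0 in any comparison. For TAC, 2 had an unadjusted p under 0.05 in GFP hearts and 0 in CARDINAL hearts, beside 5041 and 3682 of all 16857 genes. Fzd4, Lrp5 and Lrp6 had mean levels of 76.6, 46.3 and 50.9 CPM in GFP Sham hearts, against 74.7, 48.0 and 51.7 CPM in GFP TAC hearts. None of the tested Frizzled genes outside the 10 passed the test after TAC with either virus.

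Of 23 other extracellular and membrane regulators, 6 had 0 counts in all mice, including Dkk1 and Dkk4, and 11 were tested. Kremen1, a receptor for Dickkopf proteins, rose after TAC with both viruses, by a log2 fold change of 0.55 (SE 0.09, adjusted p = 6.62e-04) in GFP and 0.33 (SE 0.09, adjusted p = 0.0378) in CARDINAL hearts. Apcdd1, a membrane inhibitor of Wnt signaling, rose in GFP hearts (0.99, SE 0.30, adjusted p = 0.0328) and had a log2 fold change of -0.004 (SE 0.31, adjusted p = 0.998) in CARDINAL hearts, with a difference of -0.995 (SE 0.43, adjusted p = 0.453) that did not pass. The R-spondin receptor Lgr4 rose in CARDINAL hearts (0.26, SE 0.07, adjusted p = 0.0385) and was not called in GFP hearts. For the difference in TAC response between the viruses, edgeR called 0 of these 11. All 21 intracellular genes of the beta-catenin pathway were tested, and 1 was called, Pygo2, a nuclear cofactor of beta-catenin, which rose after TAC in GFP hearts (0.23, SE 0.07, adjusted p = 0.0304). In CARDINAL hearts, and for the difference in TAC response, edgeR called 0 of the 21. Ctnnb1, which encodes beta-catenin, was at 232.6 CPM in GFP Sham and 248.6 CPM in GFP TAC hearts and was not called.

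Of 12 genes known as targets of beta-catenin, 9 were tested. Beside 8.49% of all genes called higher after TAC in GFP hearts, 4 of these 9 were called higher. These were Ccn5 (1.76, SE 0.49, adjusted p = 0.022), Cd44 (1.32, SE 0.22, adjusted p = 9.91e-04), Nkd2 (1.14, SE 0.26, adjusted p = 0.00752) and Myc (0.88, SE 0.29, adjusted p = 0.0462), the last named after its value was seen. Cd44, a hyaluronan receptor found on many stromal and immune cells, was the 1 that also rose in CARDINAL hearts (1.34, SE 0.23, adjusted p = 0.00444). Axin2, the target most often used as a readout of the canonical branch, had a log2 fold change of 0.28 (SE 0.25, adjusted p = 0.507) in GFP and -0.13 (SE 0.25, adjusted p = 0.834) in CARDINAL hearts. In TAC hearts all 9 had a negative log2 fold change for CARDINAL against GFP, with a median of -0.36, against -0.007 over all genes. Of these 9, edgeR called 0, and 2 had an unadjusted p under 0.05, beside 2528 of all 16857 genes. The largest log2 fold change of the 9 was that of Ccn5 at -1.56 (SE 0.48, adjusted p = 0.15). Of the 12 planar polarity and noncanonical genes, all tested, the cadherins Celsr2 and Celsr3 fell with both viruses. Celsr2 fell by 0.73 (SE 0.16, adjusted p = 0.00645) in GFP and by 0.65 (SE 0.16, adjusted p = 0.0286) in CARDINAL hearts, and Celsr3 by 0.83 (SE 0.23, adjusted p = 0.0204) and by 0.96 (SE 0.22, adjusted p = 0.0208) on the log2 scale. Prickle2 rose in GFP hearts (0.43, SE 0.14, adjusted p = 0.0415), although its groups overlapped.

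**Figure D5:**
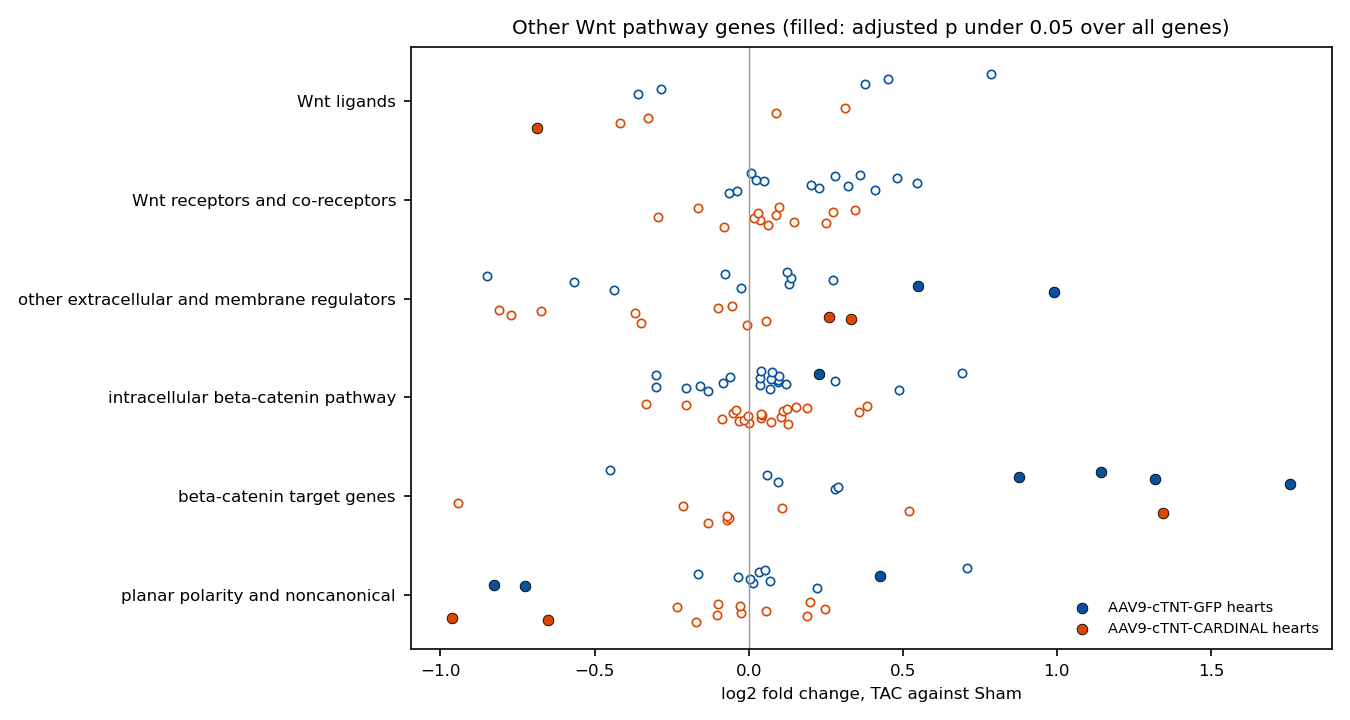
Log2 fold change of TAC against Sham (x axis) for the 71 tested pathway genes outside the 10, by list (y axis), with GFP hearts in blue and CARDINAL hearts in orange. Filled points passed an adjusted p under 0.05 over all genes: 10 in GFP and 6 in CARDINAL hearts, with Celsr2 and Celsr3 to the left in both.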

How the data were processed

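Poly(A) libraries of heart apex RNA from 16 mice were read from a single end over 50 bases. The authors deposited raw counts of reads per Ensembl gene with no normalization, in 1 column per mouse. The submitters' processing notes name FastQC, HISAT2 2.1.0, edgeR 3.26.1 and GRCm38, without their roles. The counting program, the use of strand and the treatment of reads with several matches were not given in the sources used here. Gene names, positions and exon lengths came from GENCODE M21, which named 55480 of the 55573 genes.

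Testing used edgeR 4.0.16 under R 4.3.3. After the expression filter by group and TMM scaling, all 16 mice entered 1 quasi-likelihood model with 5 contrasts of group means, with Benjamini-Hochberg adjustment over 16857 genes. A standard error is the log2 fold change divided by the root of its F. Correlations used log2 CPM with a prior count of 2. The common coefficient of variation between mice was 0.128. The same code was tested on simulated data. No simulated mouse stood apart from its group, so that test says nothing about calls that hinge on 1 mouse. Figures were drawn in Python 3.11.15 with matplotlib 3.10.9.

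All 10 members are named. Of the other pathway genes, those named were in each list the 3 with the largest change among those called with a mean of at least 1 CPM, and for likeness the 3 with the highest correlation. Myc, Axin2, Ctnnb1, Fzd4, Lrp5, Lrp6, Thbs4, Acta2 and the genes given as examples at 0 counts fall outside this rule and were chosen after their values were seen. Members and lists were chosen with earlier results of these data known. The alternatives were DESeq2 1.42.0, RLE factors, no filter or a stricter one, a fit of the 8 mice of a comparison, a replicate block and each mouse left out in turn, and, added after seeing the data, both TAC mice with the highest Sfrp1 left out together.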

Additional observations from a re-analysis of the deposited data

Results flagged for a closer look

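In 5 of 40 sets of 4 mice (10 genes in 4 groups), the highest mouse lay farther from the others than the 95% limit of Dixon's test for 4 values allows. Chance flags about 1 in 20 such sets. Frzb was at 8.43 CPM in GFP TAC mouse 3, with the others between 6.08 and 6.39 CPM. Sfrp1 was at 22.8 CPM in the same mouse, with the others between 9.65 and 11.6 CPM. Sfrp2 was at 3.05 CPM in CARDINAL TAC mouse 1, with the others between 0.846 and 1.15 CPM. Sfrp4 was at 0.497 CPM in CARDINAL Sham mouse 1, from 11 counts, with the others at 0. Wnt5a was at 10.1 CPM in GFP Sham mouse 1, with the others between 6.27 and 6.45 CPM. The first 3 of these values come from the mice with the highest summed fibroblast markers of their groups, at 993.7 and 919 CPM, and the part of those markers in the values was not tested.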

How the results depend on the processing

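In the comparisons in which a member was called, its log2 fold change kept its sign under every alternative run. With 4 mice per group and members mostly under 10 CPM, the calls near the threshold depended on the setting, and the cause was not tested. Among the members, the count called was 4 for TAC in GFP hearts (3 to 5 with a mouse left out), 2 for TAC in CARDINAL hearts (1 to 2), 1 for CARDINAL against GFP in TAC hearts (0 to 2), 0 in Sham hearts (0 to 0) and 0 for the difference in response (0 to 0). The call of Frzb in TAC hearts was lost, leaving 0, without a filter on low counts and with only the 8 mice compared, and 2 members were called with both TAC mice of highest Sfrp1 left out. Among other pathway genes the count for TAC in GFP hearts was 10 (5 to 12), and 6 without a filter and 6 without both mice. In CARDINAL hearts it was 6 (1 to 7, the lowest without CARDINAL Sham mouse 2), with 2 without a filter, 3 with only the 8 mice and 3 without both mice. In TAC hearts it was 0 (0 to 2), with 1 by DESeq2 and 2 without both mice. In Sham hearts it was 0 (0 to 0) and for the difference 0 (0 to 1). Over all genes, TAC in GFP hearts gave 2934 calls (1962 to 3072). TAC in CARDINAL hearts gave 1092 (384 without CARDINAL TAC mouse 5, to 1436 without CARDINAL TAC mouse 1), and 615 without a filter. CARDINAL against GFP in TAC hearts gave 17 (0 to 535, the highest without CARDINAL TAC mouse 1), with 435 by DESeq2, 3 without a filter, 35 with at least 1 CPM in at least 4 mice, 3 with only the 8 mice and 191 without both mice. Sham hearts gave 2 (1 to 3), with 5 by DESeq2. The difference in response gave 2 (2 to 79), with 145 by DESeq2 and 38 without both mice.

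Deviations of same-numbered mice correlated between -0.04 and 0.211. Differently numbered mice were not compared in this way, so whether the numbers pair the mice was not tested. With a replicate block, in which mice 5, 6 and 7 carry no information because each number occurs once, the members called were 4, 0, 0, 0 and 0 in the order above, with Sfrp2 (1.46) called in place of Fzd2 (0.95) for TAC in GFP hearts, the other pathway genes called 10, 0, 0, 0 and 0, and all genes called 2091, 31, 0, 1 and 1.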
